A study of Homo sapiens with 6 samples.

Results

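Sialic acid is the sugar that caps many N-glycans, O-glycans and glycolipids at the cell surface, and these results concern the genes that make it, activate it, carry it into the Golgi and remove it again. The 9 genes listed were GNE, NANS, NANP, CMAS, SLC35A1, NEU1, NEU2, NEU3 and NEU4. They were chosen by function, and their probe sets were found by the RefSeq accession in each identifier. In all, 8 of the 9 genes had a matching probe set, among 927 genes and 1259 probe sets in the table. NEU1 had 2 probe sets and the other genes 1 each, which gives 9 probe sets. For NANP no probe set was matched, and it was not analysed here.

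Expression was measured on 3 Affymetrix arrays for each of 2 populations of RKO, a human cell line from a colon carcinoma. RKO C2 (C2 below) is a clonal population, and RKO C2 F3 (F3 below) was obtained from C2 by fluorescence-activated sorting for low u-PAR, the urokinase plasminogen activator receptor, so that F3 shares its origin with the controls. The labels name no further treatment or genetic change in either population, and only some of them describe F3 as clonal. The question was which enzyme of glycosylation is lacking in cells where this heavily glycosylated receptor does not mature fully. The values are log2 expression, so that a difference of 1 is a doubling. None of the 6 colon epithelial markers chosen had a matched probe set, so the labelled cell type could not be checked with them. Of 6 leukocyte markers 2 were measured (CD22 and CD33), and their summed level on the log2 scale was 5.54 to 5.64 in C2 and 5.57 to 5.61 in F3. Of 5 fibroblast and endothelial markers 4 were measured (PDGFRB, PECAM1, VCAM1 and LUM), with a summed level of 5.98 to 6.04 in C2 and 5.94 to 5.97 in F3. The median log2 value was 5.48 to 5.51 on the 6 arrays, and their number limits the precision.

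The pathway starts from UDP-GlcNAc in the cytosol. GNE, an enzyme with both an epimerase and a kinase activity, turns it into phosphorylated N-acetylmannosamine and is held back by the end product of the pathway. NANS condenses that product with phosphoenolpyruvate to phosphorylated sialic acid, NANP removes the phosphate, CMAS joins sialic acid to CMP in the nucleus, and SLC35A1 carries CMP-sialic acid into the Golgi, where sialyltransferases use it. Sialidases cut sialic acid off again. NEU1 works in the lysosome in a complex with cathepsin A, NEU2 is cytosolic, NEU3 is bound to membranes and acts mainly on gangliosides, and NEU4 sits on intracellular membranes.

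None of the 9 probe sets passed the test for a difference between F3 and C2. Limma, with the p-values adjusted over all 1259 probe sets, called 0 of 9 at an adjusted p under 0.05, against a background of 1 called probe set in the whole table (0.0794%). At an unadjusted p under 0.05 the count was again 0 of 9, beside 68 of 1259 (5.40%) in the whole table. An ordinary two-sample test, with 1 variance for both populations but none shared across probe sets, also gave 0 of 9. The 1 probe set called belonged to PIGB, a gene of GPI anchor synthesis that is named here because of its values. In bulk RNA of this kind, fewer cells with a transcript and less of it per cell cannot be told apart. Log2 changes, F3 minus C2, lay between -0.028 for GNE and 0.072 for NEU4. The 95% intervals of single probe sets ended at a change of 1.11-fold to 1.20-fold in the direction in which they reached farthest. The distribution of all changes places the 9 probe sets near its centre.

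**Figure D1:**
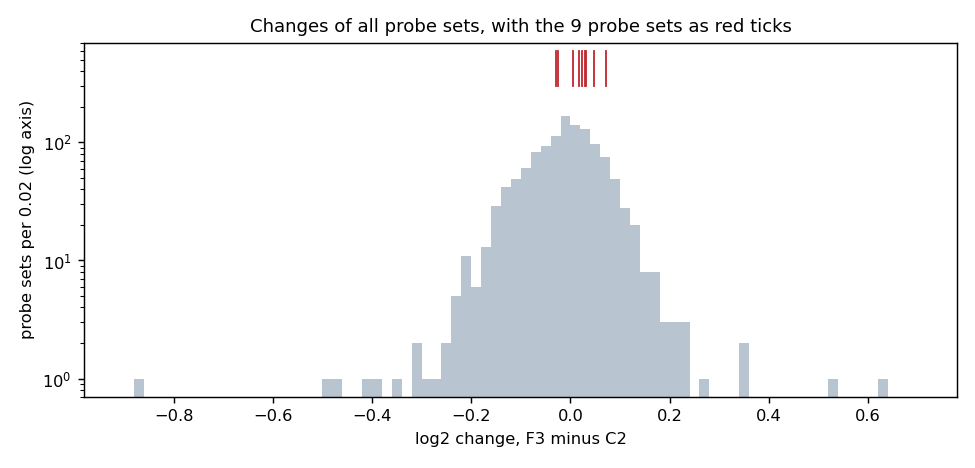
Log2 change (F3 minus C2, x axis) of all 1259 probe sets, as the number of probe sets per bin on a log axis, with the sialic acid genes' 9 probe sets as red ticks. The ticks lie between -0.028 and 0.072, where 95% of all probe sets have an absolute change under 0.17.

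The upstream sequences are shown for the 4 measured genes that bring CMP-sialic acid to the Golgi. They were picked because their levels moved together with the array number in these same data, as described after their values. Of all probe sets, 24.7% had the array of number 1 lowest in both populations. Whether the upstream sequences have a part in the shared pattern was not tested. NEU2, which moved with them, is not a gene of that supply route and is not shown. Each run gives the 250 bases before a transcription start in the RefSeq annotation of GRCh38.p14, 5′ to 3′ on the gene's own strand. Capitals mark every match to the motifs searched on both strands, which were the GC box (GGGCGG), the CCAAT box (CCAAT), the TATA box (TATAAA), the E box (CACGTG) and the cyclic AMP response element (TGACGTCA). The RefSeq table lists 2 starts for GNE, an outer one at chr9:36276979-36277228 and one within the gene at chr9:36258449-36258698, both on the minus strand, and which of them the probe set's transcript uses was not determined. The other windows are chr9:98056482-98056731 for NANS, chr12:22045968-22046217 for CMAS and chr6:87472724-87472973 for SLC35A1, all on the plus strand.
GNE outer start: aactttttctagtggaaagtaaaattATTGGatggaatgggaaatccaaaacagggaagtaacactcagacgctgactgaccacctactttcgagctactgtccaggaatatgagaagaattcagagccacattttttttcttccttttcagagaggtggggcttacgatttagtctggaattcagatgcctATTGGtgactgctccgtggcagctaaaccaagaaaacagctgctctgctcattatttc
GNE inner start: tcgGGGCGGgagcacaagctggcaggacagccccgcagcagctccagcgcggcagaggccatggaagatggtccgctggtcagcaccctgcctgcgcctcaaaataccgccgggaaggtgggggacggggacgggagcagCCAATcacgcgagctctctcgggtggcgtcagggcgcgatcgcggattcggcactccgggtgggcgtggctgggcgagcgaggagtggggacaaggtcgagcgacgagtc
NANS: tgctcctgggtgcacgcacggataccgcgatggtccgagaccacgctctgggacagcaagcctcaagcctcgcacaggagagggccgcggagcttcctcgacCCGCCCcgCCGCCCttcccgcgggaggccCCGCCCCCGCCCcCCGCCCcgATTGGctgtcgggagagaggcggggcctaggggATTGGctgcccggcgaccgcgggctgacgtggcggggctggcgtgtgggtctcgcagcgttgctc
CMAS: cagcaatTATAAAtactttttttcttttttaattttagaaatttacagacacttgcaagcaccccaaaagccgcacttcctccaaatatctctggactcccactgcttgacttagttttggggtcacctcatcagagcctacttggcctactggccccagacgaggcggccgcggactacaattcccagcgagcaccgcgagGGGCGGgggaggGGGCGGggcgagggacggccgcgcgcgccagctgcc
SLC35A1: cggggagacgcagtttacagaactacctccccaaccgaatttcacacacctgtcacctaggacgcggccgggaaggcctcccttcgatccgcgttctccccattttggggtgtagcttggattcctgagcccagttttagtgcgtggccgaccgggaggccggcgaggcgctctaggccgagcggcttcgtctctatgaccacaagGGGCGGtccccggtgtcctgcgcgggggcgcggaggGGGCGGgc

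A GC box was found in 4 of the 5 windows, with 5 matches in NANS, 2 in CMAS, 2 in SLC35A1, 1 at the inner GNE start and 0 at the outer one, where 42.6% of 35116 promoter windows of the same length hold at least 1. A CCAAT box was found at both GNE starts and in NANS, and 32.0% of all windows hold one. CMAS alone of these windows held the TATA box letters, 243 to 238 bases before its start, and 10.7% of all windows hold them. Neither the E box (6.34% of all windows) nor the cyclic AMP response element (1.65%) was found in any of the 5. No 2 matches overlapped. The outer GNE window had 4 CpG dinucleotides and 42.0% G and C, while the inner GNE, NANS, CMAS and SLC35A1 windows had 27, 30, 16 and 25 CpG, beside a median of 11 over all windows. A match describes the letters only, and binding was not measured.

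GNE, which controls the entry into the pathway, had log2 values of 8.30, 8.50 and 8.47 on C2 arrays 1, 2 and 3 and 8.24, 8.43 and 8.52 on F3 arrays 1, 2 and 3. The array of number 1 was the lowest in both populations, and the populations overlapped. Its mean was 8.42 ± 0.11 (SD, n = 3) in C2 and 8.39 ± 0.14 (SD, n = 3) in F3. The change was -0.028 (SE 0.086, 95% interval -0.23 to 0.17, limma adjusted p = 0.998), a ratio of 0.981 with an interval of 0.855 to 1.12.

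NANS, the sialic acid phosphate synthase, had log2 values of 10.53, 10.61 and 10.62 in C2 and 10.50, 10.62 and 10.73 in F3. F3 array 3 was the highest of the 6, both arrays of number 1 were the lowest, and the populations overlapped. The mean of 10.58 ± 0.05 (SD, n = 3) in C2 and that of 10.62 ± 0.11 (SD, n = 3) in F3 gave a change of 0.032 (SE 0.068, 95% interval -0.12 to 0.19, limma adjusted p = 0.998).

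CMAS, which makes the donor CMP-sialic acid, had log2 values of 10.26, 10.39 and 10.33 in C2 and 10.29, 10.33 and 10.41 in F3. The F3 values lay within or just above the range of C2. The change was 0.018 (SE 0.059, 95% interval -0.12 to 0.15, limma adjusted p = 0.998), the smallest SE among the 9 probe sets, with means of 10.33 ± 0.07 and 10.35 ± 0.06 (SD, n = 3 each).

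SLC35A1, the Golgi transporter of CMP-sialic acid, had log2 values of 8.32, 8.58 and 8.46 in C2 and 8.34, 8.56 and 8.53 in F3. The order of the arrays was the same in both populations, with number 1 lowest and number 2 highest. The change was 0.023 (SE 0.084, 95% interval -0.17 to 0.22, limma adjusted p = 0.998), with means of 8.45 ± 0.13 in C2 and 8.48 ± 0.12 in F3 (SD, n = 3 each). The plot of values by array shows that for GNE and SLC35A1 the gap between array numbers was wider than the gap between populations.

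**Figure D2:**
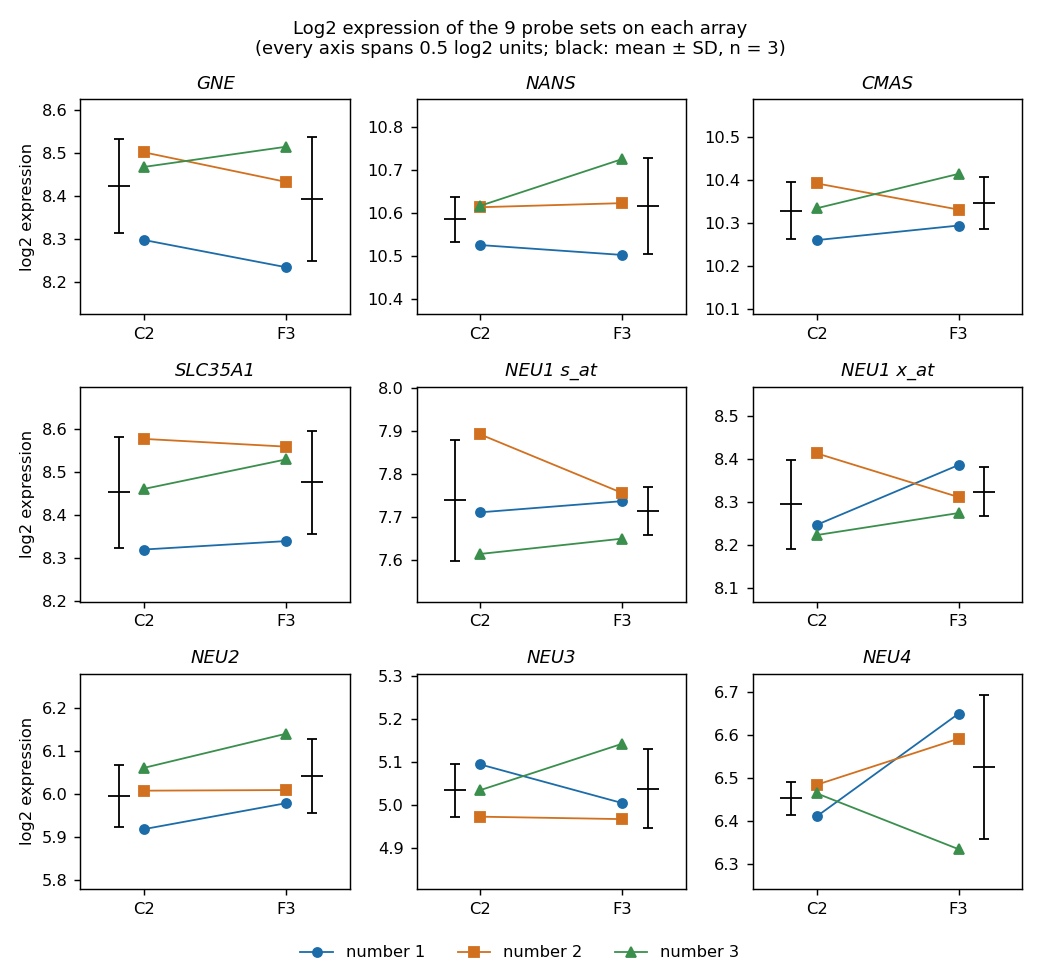
Log2 expression (y axis) of each probe set in C2 and F3, with arrays of the same number joined by a line and the mean ± SD (n = 3) in black beside them; every y axis spans the same range but starts at its own level. The populations overlap in all 9 panels, and number 1 is lowest in both populations for GNE, NANS, CMAS, SLC35A1 and NEU2.

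The 4 genes of synthesis, activation and transport, and the sialidase gene NEU2, shared a pattern that was not a difference between populations. The array of number 1 was the lowest of its population for these 5 of 9 probe sets in both C2 and F3. This pattern was present in 311 of 1259 probe sets (24.7%) overall. Arrays of number 1 lay below the mean of the other 4 arrays by a log2 difference of -0.21 for GNE, -0.20 for SLC35A1, -0.13 for NANS, -0.11 for NEU2 and -0.091 for CMAS, where the median over all probe sets was -0.018 and the range from the 5th to the 95th percentile was -0.20 to 0.15. GNE showed it separately in C2 (-0.19) and in F3 (-0.24), and so did SLC35A1 (-0.20 in both) and NEU2 (-0.12 and -0.096). NANS (-0.090 and -0.17) and CMAS (-0.10 and -0.079) did so as well. The pattern was present for the same 5 probe sets after median centring, beside 22.3% of all probe sets. After a repeated quantile normalization it was present for GNE, SLC35A1 and NEU2 but not for NANS and CMAS, beside 18.4% of all.

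Arrays of the same number share a suffix in their labels, and what it stands for was not stated. Over the 6 arrays, the 6 pairs among GNE, NANS, CMAS and SLC35A1 had Pearson correlations from 0.78 to 0.90, given as a description, since the arrays share numbers across populations. NEU2 tracked them as well, with 0.90 for NANS, 0.83 for CMAS, 0.74 for GNE and 0.60 for SLC35A1. The median over all pairs of genes was 0.039 and the upper quartile 0.40. Such likeness was not particular to this pathway. Of 919 genes outside the group, 35 had a correlation over 0.9 with GNE, 25 with NANS, 21 with CMAS and 16 with SLC35A1. The highest pair among GNE, NANS, CMAS and SLC35A1 was at 0.899. With the array number as a block in limma, the SE fell from 0.086 to 0.052 for GNE, from 0.084 to 0.049 for SLC35A1 and from 0.068 to 0.052 for NANS. For CMAS it fell only from 0.059 to 0.052. The fall was not limited to the synthesis genes, with 0.077 to 0.056 for NEU1 s_at and 0.065 to 0.049 for NEU2. It was 0.067 to 0.061 for NEU1 x_at, 0.064 to 0.057 for NEU3 and 0.083 to 0.077 for NEU4. The intervals narrowed to -0.15 to 0.096 for GNE, -0.095 to 0.14 for SLC35A1 and -0.094 to 0.16 for NANS. The part of the array number in these levels was not tested further.

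**Figure D3:**
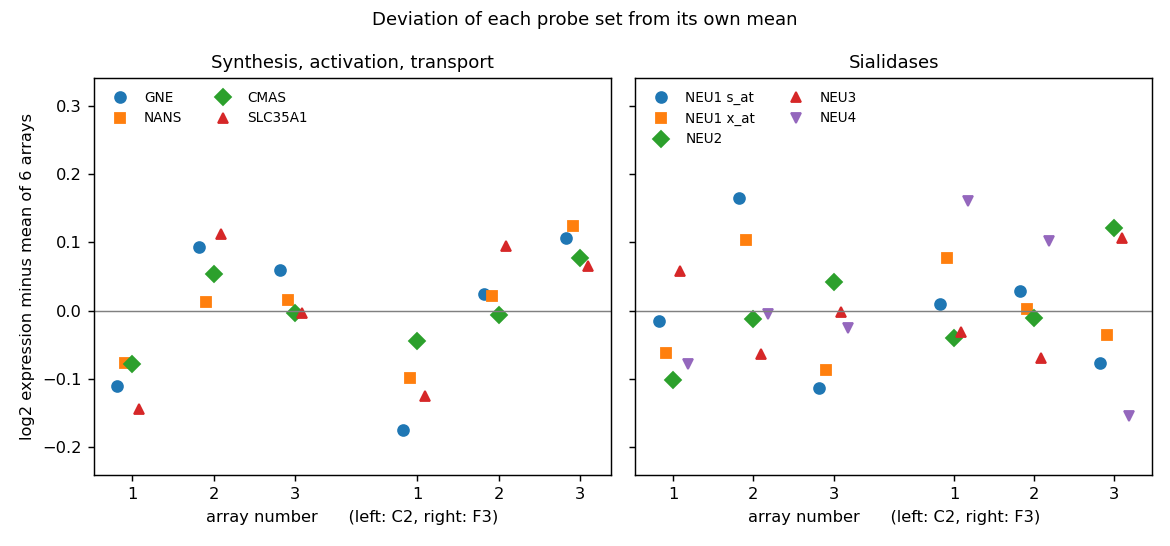
Log2 expression of each probe set minus its own mean over the 6 arrays (y axis), by array number in C2 (left of each panel) and F3 (right). GNE, NANS, CMAS and SLC35A1 lie below 0 on both arrays of number 1, as does NEU2. The sialidase probe sets other than NEU3 also lie below 0 on C2 array 1. On F3 array 1 the sialidase probe sets together are spread to both sides of 0.

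NEU1, the lysosomal sialidase, was measured by probe sets ending in s_at and x_at, which by the array maker's naming can bind related transcripts. The s_at probe set had log2 values of 7.71, 7.89 and 7.62 in C2 and 7.74, 7.76 and 7.65 in F3, with a change of -0.025 (SE 0.077, 95% interval -0.20 to 0.15). The x_at probe set had 8.25, 8.41 and 8.22 in C2 and 8.39, 8.31 and 8.27 in F3, with a change of 0.030 (SE 0.067, 95% interval -0.12 to 0.18). Both were highest on C2 array 2 and lowest on C2 array 3, and the F3 values lay inside the C2 range for each. The signs of their changes were opposite, and neither probe set was called (limma adjusted p = 0.998 for each). The limit on related transcripts also holds for NANS and SLC35A1, whose probe sets end in s_at too.

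NEU2, the cytosolic sialidase, had log2 values of 5.92, 6.01 and 6.06 in C2 and 5.98, 6.01 and 6.14 in F3. It was the 1 probe set of the 9 whose 3 differences between same-numbered arrays had the same sign, at 0.060, 0.0014 and 0.079, while 30.0% of all probe sets had 3 differences of one sign. The populations overlapped, and the change was 0.047 (SE 0.065, 95% interval -0.10 to 0.20, limma adjusted p = 0.998).

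NEU3, the membrane sialidase that acts on gangliosides, had log2 values of 5.09, 4.97 and 5.03 in C2 and 5.004, 4.97 and 5.14 in F3. Its means of 5.03 ± 0.06 and 5.04 ± 0.09 (SD, n = 3 each) were the closest of the 9, with a change of 0.0041 (SE 0.064, 95% interval -0.14 to 0.15, limma adjusted p = 0.998). F3 array 3 was the highest and F3 array 2 the lowest, so that F3 spanned the whole range of C2.

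NEU4, a sialidase of intracellular membranes, had log2 values of 6.41, 6.48 and 6.46 in C2 and 6.65, 6.59 and 6.33 in F3. The F3 arrays lay on both sides of C2, with numbers 1 and 2 above all C2 arrays and number 3 below them. The SD was 0.04 in C2 and 0.17 in F3 (n = 3 each). The change of 0.072 (SE 0.083, 95% interval -0.12 to 0.26, limma adjusted p = 0.998) was the largest in size of the 9 and was exceeded by 32.2% of all probe sets. It rested on single arrays, since without F3 array 3 it was 0.17 (limma adjusted p = 0.88) and without F3 array 1 it was 0.0099.

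Considered as a group, 7 of the 9 probe sets had a change above 0 and 2 below, with a median of 0.023, beside 571 above and 688 below with a median of -0.0064 over all probe sets. After median centring 702 of all probe sets were above 0 and 7 of the 9 again, and without F3 array 3 the 9 had 3 above 0. Median absolute changes were 0.028 for the 9 and 0.047 for all probe sets, and the median within-population SD was 0.087 and 0.083. The populations overlapped for all 9, while 130 of 1259 probe sets (10.3%) did not overlap. The changes of the genes for synthesis, activation and transport (-0.028 to 0.032) and those of the sialidases (-0.025 to 0.072) overlapped. With the array number as a block, limma called 0 of 9 and 2 of 1259 (0.159%), and at an unadjusted p under 0.05 it gave 0 of 9 and 101 of 1259 (8.02%).

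**Figure D4:**
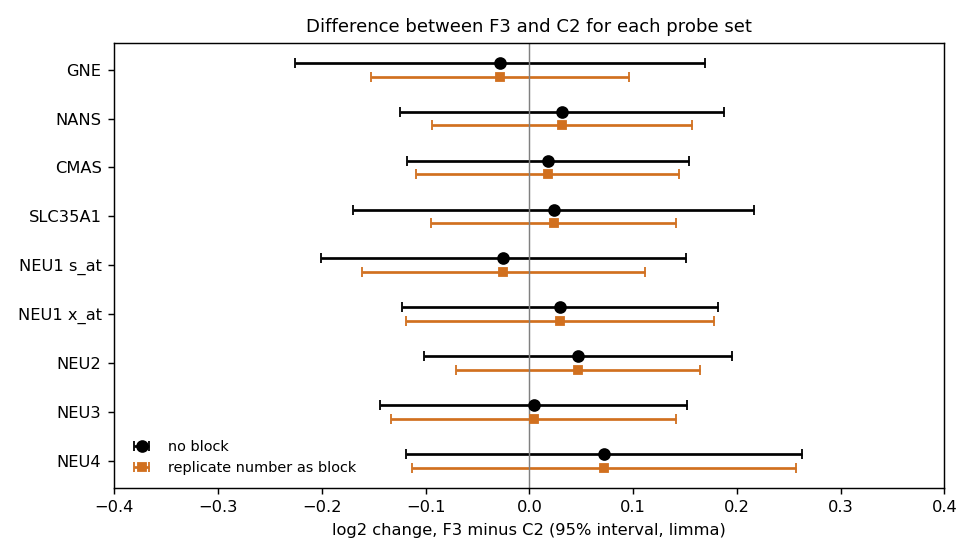
Log2 change, F3 minus C2, with its 95% interval from limma (x axis) for each probe set, without a block (black circles) and with the array number as a block (orange squares). All 18 intervals include 0, and blocking shortened those of GNE and SLC35A1 most.

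The genes on either side of the pathway were read from a list of 40, of which 37 were measured. Limma called 0 of 37 at an adjusted p under 0.05. In the fit without a block, 1 of 37 had an unadjusted p under 0.05, a lower share than the 5.40% of all 1259 probe sets. That gene was UAP1, the enzyme that makes UDP-GlcNAc, the starting substrate of GNE. Its log2 values were 11.16, 11.21 and 11.29 in C2 and 11.28, 11.37 and 11.52 in F3, so that the populations overlapped only slightly. The change was 0.17 (SE 0.072, 95% interval 0.0039 to 0.34, limma adjusted p = 0.90), higher in F3 in 3 of 3 pairs, and 0.11 without F3 array 3. Of 6 measured genes of UDP-GlcNAc and N-acetylmannosamine supply, 0 rose, 0 fell and 6 did not pass. RENBP, an epimerase of N-acetylglucosamine, was at 0.061 (95% interval -0.082 to 0.20), and GFPT1, the first enzyme of the hexosamine pathway, at -0.063 (-0.25 to 0.13).

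In the handling of free sialic acid, 2 of 4 genes were measured and 0 passed. SLC17A5, which exports sialic acid from the lysosome, was at -0.030 (95% interval -0.18 to 0.12), and NPL, the lyase that degrades it, at 0.016 (-0.16 to 0.19). All 20 listed sialyltransferases were measured, and 0 rose, 0 fell and 20 did not pass. Their median log2 change was -0.041, with 8 above and 12 below 0. Mean log2 levels in C2 ran from 2.54 for ST8SIA4 to 11.05 for ST6GALNAC4. Most of the 20 lay under 3.80, the cutoff used to remove dim probe sets, so the counts and the median come largely from dim probe sets. Among these was ST8SIA2, with means of 3.57 in C2 and 3.67 in F3. ST6GAL1, a sialyltransferase of N-glycans, was at -0.22 (95% interval -0.49 to 0.055), ST8SIA2, a polysialyltransferase, at 0.095 (-0.048 to 0.24), and ST6GALNAC4, which acts on O-glycans, at 0.23 (-0.12 to 0.58), with its other probe set at 0.021. Both ST6GAL1 and ST6GALNAC4 rested on C2 array 2, without which they were at -0.082 and 0.045.

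Of 9 lysosomal genes that work with NEU1 or on the glycans it has trimmed, 0 rose, 0 fell and 9 did not pass, with a median change of -0.071 and 8 of 9 below 0. C2 array 2 was the highest of the 6 arrays for 8 of these 9 genes, beside 329 of all 1259 probe sets (26.1%), and without it 6 of 9 changes were below 0. Over all 927 genes 531 were below 0, with a median of -0.010. CTSA, the protective protein of NEU1, had log2 values of 10.77, 10.96 and 10.60 in C2 and 10.80, 10.75 and 10.64 in F3, a change of -0.049 (95% interval -0.26 to 0.16). Like both NEU1 probe sets, it was highest on C2 array 2 and lowest on C2 array 3, and without C2 array 2 its change was 0.044. MANBA, the lysosomal beta-mannosidase, was at -0.17 (-0.41 to 0.067), AGA, which cuts the bond to asparagine, at -0.12 (-0.30 to 0.050), and MAN2B1, the lysosomal alpha-mannosidase, at -0.14 (-0.37 to 0.090). Without C2 array 2, MANBA was at -0.065 and MAN2B1 at -0.037, and without F3 array 2 AGA was at -0.050. With the array number as a block, 5 of the 37 genes had an unadjusted limma p under 0.05 (UAP1, ST6GAL1, ST6GALNAC4, MANBA and MAN2B1). That share was higher than the 8.02% of all probe sets under that fit, the reverse of the fit without a block. Of the 37 genes 0 passed after adjustment, where the smallest adjusted limma p was 0.47.

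**Figure D5:**
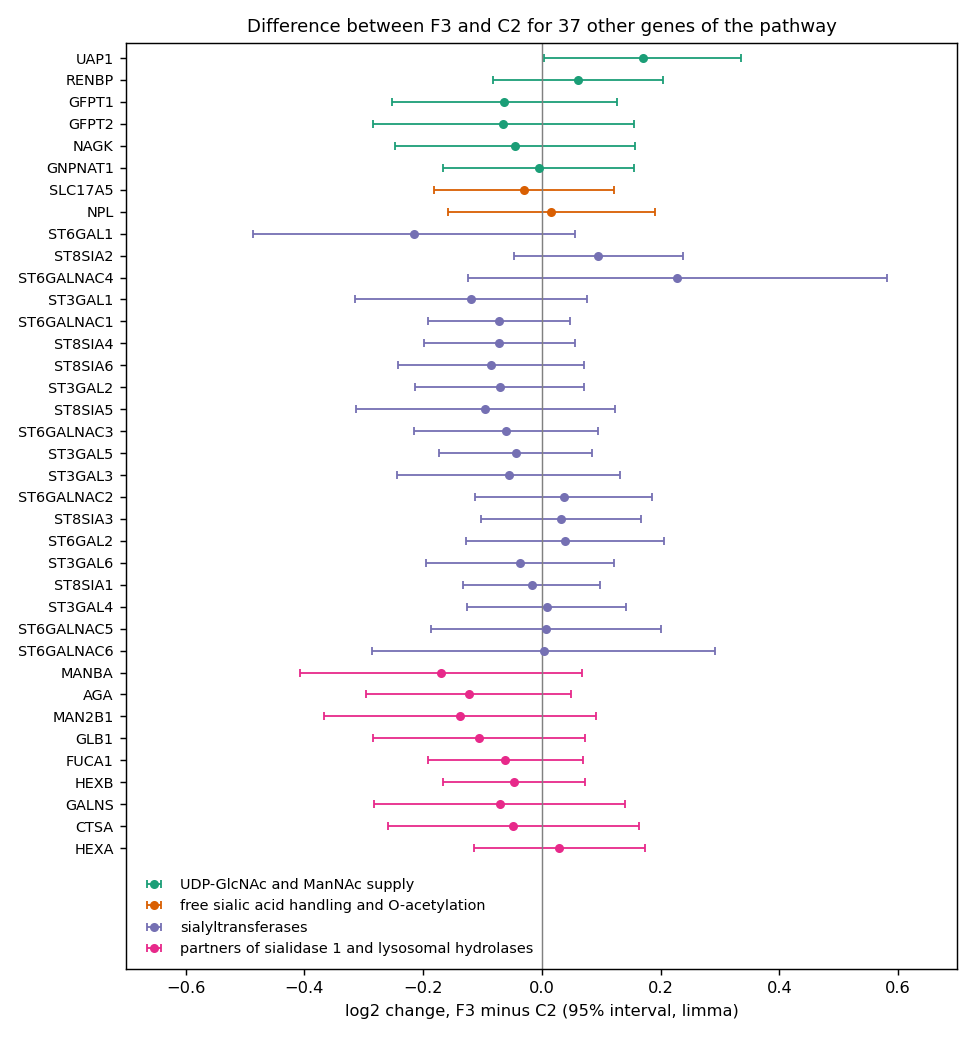
Log2 change, F3 minus C2, with its 95% interval from limma (x axis) for 37 genes that supply, use or handle sialic acid, coloured by the part of the pathway. UAP1 is the 1 gene whose interval does not include 0, and 25 of the 37 changes lie below 0.

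For each of the 8 genes, the gene outside the group with the most similar pattern was found by the Pearson correlation of log2 values over the 6 arrays, among 919 genes. With 6 arrays and shared numbers, high values are common, and 35 genes reached 0.9 with GNE and 4 with NEU3. The nearest gene was OGT for GNE (r = 0.99), RFNG for NANS (0.97), ARF3 for CMAS (0.97) and HS3ST1 for SLC35A1 (0.98). Among the sialidases it was CAPNS1 for NEU1 (0.97), CD44 for NEU2 (0.98), UGT2B10 for NEU3 (0.92) and GPC6 for NEU4 (0.98). These values describe likeness over the arrays and not a difference between the populations.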

How the data were processed

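The authors deposited log2 values for 6 arrays. They are the output of RMA (background correction, quantile normalization and summary of the probes), per the submitters' processing notes; its version, and which arrays were normalized jointly, was not given in the sources used here. The method makes arrays alike and shrinks changes of dim probe sets. No detection call came with the values, so no gene could be called absent.

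Probe sets were named by RefSeq accession without version through the RefSeq table of GRCh38.p14, and 1043 of 1259 matched 1 symbol. F3 was compared with C2 in limma 3.58.1 (R 4.3.3), through lmFit and eBayes. Tests were two-sided, and p-values were adjusted by Benjamini-Hochberg across the whole table and called under 0.05. For the neighbouring genes, the probe set with the highest mean was used. Whether arrays came from separate cultures is not stated, so p-values reflect only the spread of these samples, and this may be technical.

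Arrays with the same number deviated together from their population means, with r = 0.52, 0.18 and 0.26. Each was over 0.1, which meets the criterion for pairing. The reported fit still leaves the pairing out. With the number as a block, the SE is given for all 9 probe sets, and counts are given beside those without it. Blocked intervals are given in the text for GNE, SLC35A1 and NANS only, and in the figure of changes for all 9. The genes and lists were chosen with earlier results of these data known. The genes named were all 9 listed, in each list up to 3 with the smallest p, and CTSA, PIGB and the 5 genes under the block, which were named after their values were seen. Alternatives were the array number as a block, quantile normalization again, median centring, removal of dim probe sets, another eBayes prior, array weights, arrays left out, another threshold, an ordinary two-sample test and gene means. In a test on simulated data of this design (1259 probe sets, 10 of them changed, no pair effect), limma found 74.7% of the 1.4-fold changes and 97.5% of the 2-fold ones, and 2.9% of its calls were false. The sialic acid changes were far smaller, so these shares say nothing of them.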

Additional observations from a re-analysis of the deposited data

How the results depend on the processing

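The count of sialic acid probe sets past the threshold was 0 under every alternative, with all arrays and with each array left out, and so was that of the 37 neighbouring genes. The smallest adjusted p of any of the 9 probe sets was 0.85. Over all 1259 probe sets the count was 1 in the reported limma fit, 2 with the replicate block, 2 at an adjusted p under 0.10, 0 in the ordinary two-sample test (67 at an unadjusted p under 0.05) and 0 to 2 with 1 array left out. It was 0 without C2 array 2, C2 array 3 or F3 array 1, and 2 without F3 array 2. Directions close to 0 turned, and the cause was not tested. NEU1 s_at was at 0.0055 after quantile normalization, 0.0017 with array weights and 0.031 without both arrays of number 2. NEU3 was at -0.026 after quantile normalization and -0.012 with array weights. With 1 array left out in turn the change ran from -0.091 to 0.051 for GNE, -0.023 to 0.089 for NANS, -0.017 to 0.049 for CMAS, -0.043 to 0.092 for SLC35A1, -0.087 to 0.052 for NEU1 s_at, -0.0061 to 0.089 for NEU1 x_at, -0.0017 to 0.080 for NEU2, -0.048 to 0.040 for NEU3 and 0.0099 to 0.17 for NEU4. Of 134 values recomputed, 20 turned sign. Some of the 134 could not turn, so this share understates how readily the directions turned. The replicate block, the filter on dim probe sets, the other eBayes prior and the ordinary test leave each log2 change as it was. Gene means do the same for genes with 1 probe set. All 9 probe sets passed the filter on dim probe sets. With 3 arrays a population, changes within the intervals given cannot be resolved.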
